A study of Homo sapiens with 6 samples.

Results

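The miRNA genes treated here, known for their place in liver biology, are miR-122, miR-483 and miR-885. They were represented on the array by 5 mature probes, miR-122, miR-483-3p, miR-483-5p, miR-885-3p and miR-885-5p, chosen by name, as every probe with one of these stems and any arm suffix, which are 5 of the 581 probes with values. Passenger (asterisk) or precursor probes of the same stems numbered 0. The rule used no measured value, but the members were chosen with earlier results of these data known.

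The samples were Hep3B cells, an established human hepatocellular carcinoma line, transiently transfected by lipofection with the empty plasmid pcDNA3.1 (Mock, 3 arrays) or with that plasmid carrying HDAC6, a mainly cytoplasmic deacetylase (HDAC6, 3 arrays). The time between transfection and harvest is not given in the sources used here, and no probe measured HDAC6 itself. Per the labels' protocols, RNA from 3 separate extractions was pooled for each condition, so the arrays of a group may be repeated hybridizations of 1 pool, and every p-value below measures a spread between arrays that may be technical. The signals are the authors' quantile-normalized log2 values, a scale on which 1 unit is a doubling and the level of a probe follows from its rank on the array. Array medians lay between 7.51 and 7.58, and arrays correlated at 0.922 to 0.959 across probes within groups and at 0.779 to 0.848 between them.

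A miRNA is cut from a hairpin whose stem gives a short duplex. One arm, 5p or 3p, is usually loaded into Argonaute and guides it to messenger RNAs that pair with the seed near its 5′ end, while the other arm tends to be degraded. MiR-122 is the dominant miRNA of hepatocytes, where it supports cholesterol and lipid metabolism and is used by hepatitis C virus, and it is known to be low in several hepatoma lines. MiR-483 lies in the imprinted IGF2 gene, which encodes a fetal growth factor, and is often raised in tumours that express IGF2, liver cancer among them. MiR-885-5p is enriched in liver and is studied as a serum marker of liver damage, whereas its partner arm miR-885-3p is less well described.

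The RefSeq miRNA table (GRCh38.p14) held sequences for 3 of the 5 members. They are shown because the difference between the arms of miR-885 changed between groups, and the arms differ in base content. Capitals mark the seed, bases 2 to 8, and each is 22 bases long. The older name miR-122 stands for the 5p arm.
miR-122-5p: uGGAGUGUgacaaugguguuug
miR-885-3p: aGGCAGCGggguguaguggaua
miR-885-5p: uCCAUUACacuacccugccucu
The 3 seeds differ, and 0 other mature miRNAs in the RefSeq list share any of them. In the next line, the miR-885 hairpin, capitals mark the 5p arm and then the 3p arm.
MIR885 hairpin: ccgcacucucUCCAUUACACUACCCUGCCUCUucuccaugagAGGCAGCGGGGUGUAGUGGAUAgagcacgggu
MIR885 is annotated at chr3:10394489-10394562 on the minus strand, inside the span of ATP2B2, a plasma membrane calcium pump gene. MIR122 is annotated at chr18:58451074-58451158 on the plus strand, inside the span of the long non-coding gene MIR122HG. MIR483 lies inside the span of IGF2 and of the INS-IGF2 readthrough gene in the same annotation, which gives gene spans and does not tell exon from intron. The miR-885-3p arm holds 11 G (50.0%) and 72.7% purines, while the miR-885-5p arm holds 1 G (4.55%) and 22.7% purines. MiR-122-5p holds 9 G (40.9%). Whether base content went with the changes below was not tested. Both sequences were at hand for 20 of the 28 miRNAs whose arms were paired by probe name (71.4%). This is under the 80% set for such a check, which is therefore void. The probes' own sequences were not used here.

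On Mock arrays the highest rank of any of the 5 probes was 171, that of miR-483-5p on array 3. MiR-122 ranked from 276 to 324 of 581 on Mock arrays, counted from the brightest, and from 219 to 280 on HDAC6 arrays. Its mean percentile among all probes was 47.3 ± 4.6 in Mock and 55.7 ± 5.8 in HDAC6 (SD, n = 3), which is the middle of the array. Between 28 and 42 of the 104 precursor probes, which are named for hairpins, were brighter than the miR-122 probe on each array. The count ran from 29 to 56 for miR-885-5p and from 17 to 49 for miR-483-3p. It ran from 19 to 38 for miR-885-3p and from 13 to 29 for miR-483-5p. The mean percentile of miR-885-5p was 50.4 ± 4.4 in Mock and 38.6 ± 9.7 in HDAC6. MiR-885-3p moved from the middle, at 52.5 ± 6.2, to 77.2 ± 2.9. MiR-483-3p was at 63.6 ± 3.3 in Mock and 49.0 ± 5.9 in HDAC6, and miR-483-5p at 64.8 ± 6.0 and 78.7 ± 8.2. On HDAC6 arrays the highest was 71, that of miR-483-5p on array 2. A rank orders probes that may bind with different strength, so these positions describe the array and not molecules per cell. No detection flag was used, and how far a signal lay above background is unknown.

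The label of liver miRNAs holds for what these miRNAs are known for, but their probes were not the bright liver signals of these cells. Of 5 hepatocyte markers, miR-192 had a mean rank of 4 in Mock and miR-194 of 13, against 192 for miR-148a, 288.5 for miR-885-5p and 306.7 for miR-122. In HDAC6 the mean ranks were 29.7 for miR-192, 57.7 for miR-194, 394.7 for miR-148a, 357 for miR-885-5p and 258 for miR-122. The summed signal of the 5 hepatocyte markers ran from 13.5 to 13.9 on the log2 scale on Mock arrays and from 11.3 to 12.7 on HDAC6 arrays. This sum rests mostly on miR-192 and miR-194, the brightest of the 5. MiR-192, miR-194 and miR-148a were called lower. MiR-885-5p and miR-122 did not pass, with log2 fold changes of -0.51 and 0.40, so the 5 did not move as a set. Of the marker lists of other cell types, the 2 measured haematopoietic probes summed to between 8.14 and 8.77 in Mock and between 8.50 and 8.76 in HDAC6. The 4 fibroblast and smooth muscle probes summed to between 9.49 and 9.59 in Mock and between 10.1 and 10.6 in HDAC6. Of these 4, miR-214 was called higher, with a log2 fold change of 1.24, and the others did not pass, at 0.34 for miR-145, -0.38 for miR-143 and -0.62 for miR-199a-5p. The 2 neural probes summed to between 7.91 and 8.56 in Mock and between 6.96 and 7.16 in HDAC6, both called lower. Endothelial and striated muscle markers had 0 probes. Both groups were the same cell line, so the lists compare probe signals and were not used to estimate shares of cell types. The part of these shifts in the results below was not tested. In bulk RNA, a change in some of the cells and a smaller change in all of them cannot be told apart.

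**Figure D1:**
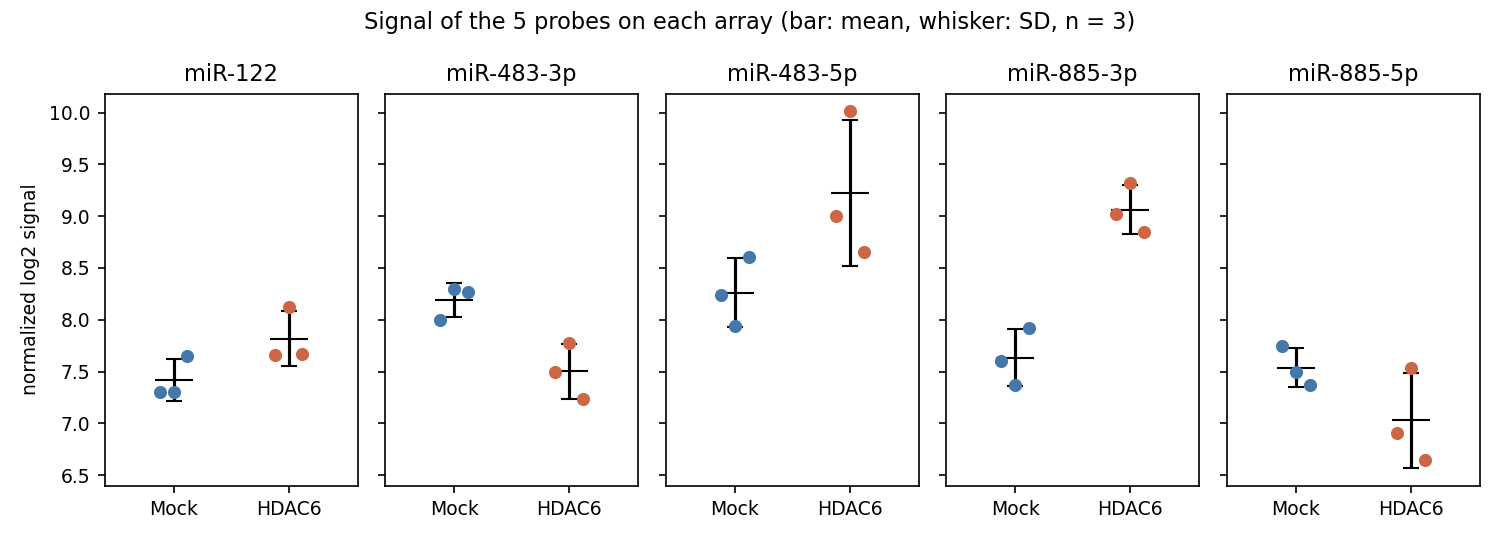
Normalized log2 signal (vertical axis) of the 5 probes on each of the 3 Mock and 3 HDAC6 arrays. Points are arrays, the horizontal bar is the mean and the whisker the SD. The miR-885-3p points are at 7.37 to 7.92 in Mock and 8.85 to 9.32 in HDAC6, while those of miR-885-5p overlap.

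Each probe was compared between HDAC6 and Mock by limma over all 581 probes, with Benjamini-Hochberg adjustment and a threshold of 0.05. Among the 5 probes, 1 was called higher (miR-885-3p) and 1 lower (miR-483-3p). Of all probes 21.3% were called higher and 24.4% lower, 45.8% in all, so 2 of 5 is a share near that of the array. Groups did not overlap for 4 of the 5, against 56.8% of all probes. The median log2 fold change was 0.40 for the 5 probes and -0.09 for all probes.

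MiR-122 had log2 signals of 7.31, 7.30 and 7.65 on Mock arrays and 7.66, 8.12 and 7.67 on HDAC6 arrays. The groups did not overlap, but Mock array 3 and HDAC6 array 1 were nearly level, and HDAC6 array 2 was the high one. The means were 7.42 ± 0.20 and 7.82 ± 0.27 (SD, n = 3), a log2 fold change of 0.40 with a 95% interval from -0.11 to 0.91 (SE 0.219). This did not pass (limma, adjusted p = 0.166), and the interval covers changes from 0.927-fold to 1.87-fold. Without HDAC6 array 2 the log2 fold change was 0.24 (adjusted p = 0.395).

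MiR-885-5p, the arm enriched in liver, read 7.749, 7.498 and 7.370 in Mock and 6.907, 7.534 and 6.644 in HDAC6. HDAC6 array 2 lay within the Mock range, and the other HDAC6 arrays lay below it. The means were 7.54 ± 0.19 and 7.03 ± 0.46, and the log2 fold change of -0.51 (95% interval -1.13 to 0.11) did not pass (limma, adjusted p = 0.150). It was -0.76 and passed without HDAC6 array 2 (adjusted p = 0.0331), and it was -0.32 without HDAC6 array 3 (adjusted p = 0.407).

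MiR-885-3p, cut from the same hairpin, read 7.60, 7.37 and 7.92 in Mock and 9.02, 9.32 and 8.85 in HDAC6. All HDAC6 arrays were above all Mock arrays, with a gap wider than the range within either group. It rose from 7.63 ± 0.28 to 9.06 ± 0.24, which is 2.70-fold (log2 fold change 1.43, SE 0.227, 95% interval 0.90 to 1.96; limma, adjusted p = 0.00347). It held position 25 among the 581 probes in order of rise, and 15 among the 386 guide-strand probes, that is, mature probes named without an asterisk.

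MiR-483-3p, an arm known to repress the pro-apoptotic gene BBC3, read 8.001, 8.298 and 8.268 in Mock and 7.494, 7.774 and 7.239 in HDAC6. The groups did not overlap, with all HDAC6 arrays lower. It fell from 8.189 ± 0.164 to 7.502 ± 0.267, 1.61-fold (log2 fold change -0.69, SE 0.214; limma, adjusted p = 0.0316). The call was lost without Mock array 2 (adjusted p = 0.0743), Mock array 3 (0.0685), HDAC6 array 1 (0.0967) or HDAC6 array 3 (0.106), and with arrays centred on small RNA control probes (0.232).

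MiR-483-5p, the opposite arm, read 8.242, 7.940 and 8.605 in Mock and 9.001, 10.01 and 8.652 in HDAC6. The groups did not overlap, although HDAC6 array 3 was close to Mock array 3 and HDAC6 array 2 stood highest. The means were 8.26 ± 0.33 and 9.22 ± 0.71, and the log2 fold change of 0.96 (95% interval 0.11 to 1.81, not adjusted for the number of probes) did not pass (limma, adjusted p = 0.0644). Without HDAC6 array 2 it was 0.56 (adjusted p = 0.135), and without HDAC6 array 3 it was 1.24 and passed (adjusted p = 0.0408).

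The arms of each hairpin were then set against each other within each array, which removes any shift common to the array on the log2 scale. The size of a 3p minus 5p difference includes how well each of the probes binds, so only its change between groups was tested. Pairs were made from names ending in a hyphen and 3p or 5p, which gave 28 miRNAs, and limma was run over these. The probes miR-3243p and miR-3245p, named without that hyphen, were not paired. Their log2 fold changes were 0.47 and -1.47, also of opposite sign, and they are outside the positions and counts of pairs below. Of the 28 miRNAs, 42.9% were called, 17.9% with the 3p arm up relative to 5p and 25% with it down, and both miR-483 and miR-885 were among them. The share was lower when pairs of a guide strand and its asterisk probe were added. Then 19 of 86 pairs were called (22.1%), again with miR-483 and miR-885 among them. The exact permutation test over arrays, two-sided, cannot give a p below 0.1 for 3 arrays against 3, and gave that value for both.

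For miR-885 the 3p minus 5p difference was -0.14, -0.13 and 0.55 on Mock arrays and 2.12, 1.78 and 2.20 on HDAC6 arrays. The arms read about level in Mock, and the 3p probe was brighter than the 5p probe on every HDAC6 array. The difference went from 0.09 ± 0.40 to 2.04 ± 0.22, a change of 1.94 (SE 0.266, 95% interval 1.30 to 2.58; limma over pairs, adjusted p = 0.00385). The 3p to 5p ratio thus rose 3.84-fold. By size this change held position 3 of 28 and by p-value position 1.

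For miR-483 the difference was -0.24, 0.36 and -0.34 on Mock arrays and -1.51, -2.24 and -1.41 on HDAC6 arrays. Here too the arms were about level in Mock, but on HDAC6 arrays it was the 5p probe that was brighter. The difference went from -0.07 ± 0.38 to -1.72 ± 0.45, a change of -1.65 (SE 0.316, 95% interval -2.41 to -0.88; limma over pairs, adjusted p = 0.00759), or a 3p to 5p ratio 3.13-fold lower. It held position 5 of 28 by size. Leaving out any 1 array kept both calls.

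**Figure D2:**
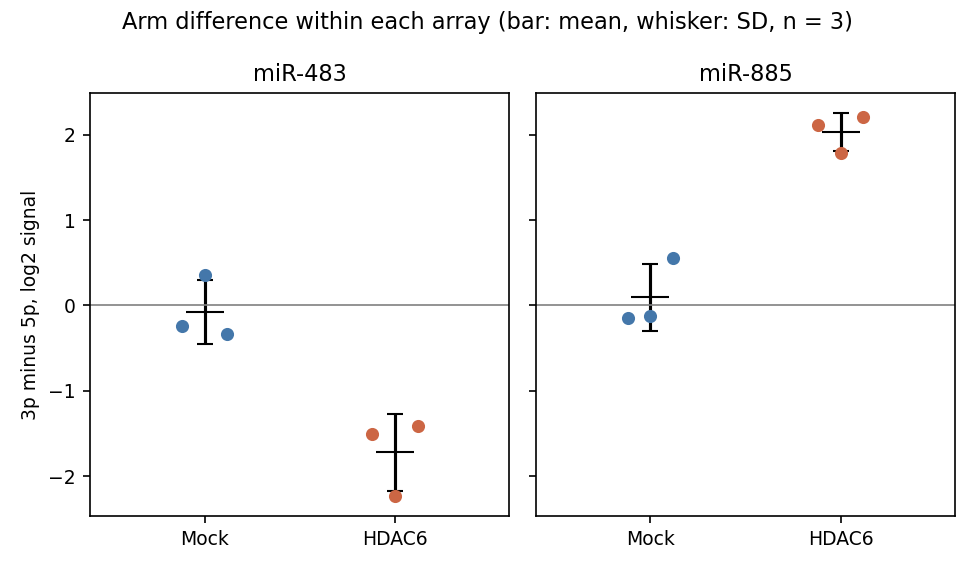
The 3p minus 5p difference in log2 signal (vertical axis) within each array for miR-483 and miR-885. Points are arrays, the bar is the mean and the whisker the SD (n = 3 per group). Mock points lie between -0.34 and 0.55 for both, and HDAC6 points lie below -1.4 for miR-483 and above 1.7 for miR-885.

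The differences in probe signal thus changed in opposite directions, towards 3p for miR-885 and towards 5p for miR-483. How the hairpins were cut or their arms kept was not measured. The miR-885 difference less the miR-483 difference was 0.17 ± 0.69 in Mock and 3.75 ± 0.23 in HDAC6, a change of 3.59. This contrast joins the changes given above, in which the groups were already apart in opposite directions. It is therefore a description and no further test. For both miRNAs, 1 arm was called on its own and the other was not, although the latter's fold change had the opposite sign. Of the 28 miRNAs, 13 had arms with fold changes of opposite sign, and 8 of those 13 were called in the test of the arm difference. In 0 of the 28 were both arms called on their own in opposite directions.

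**Figure D3:**
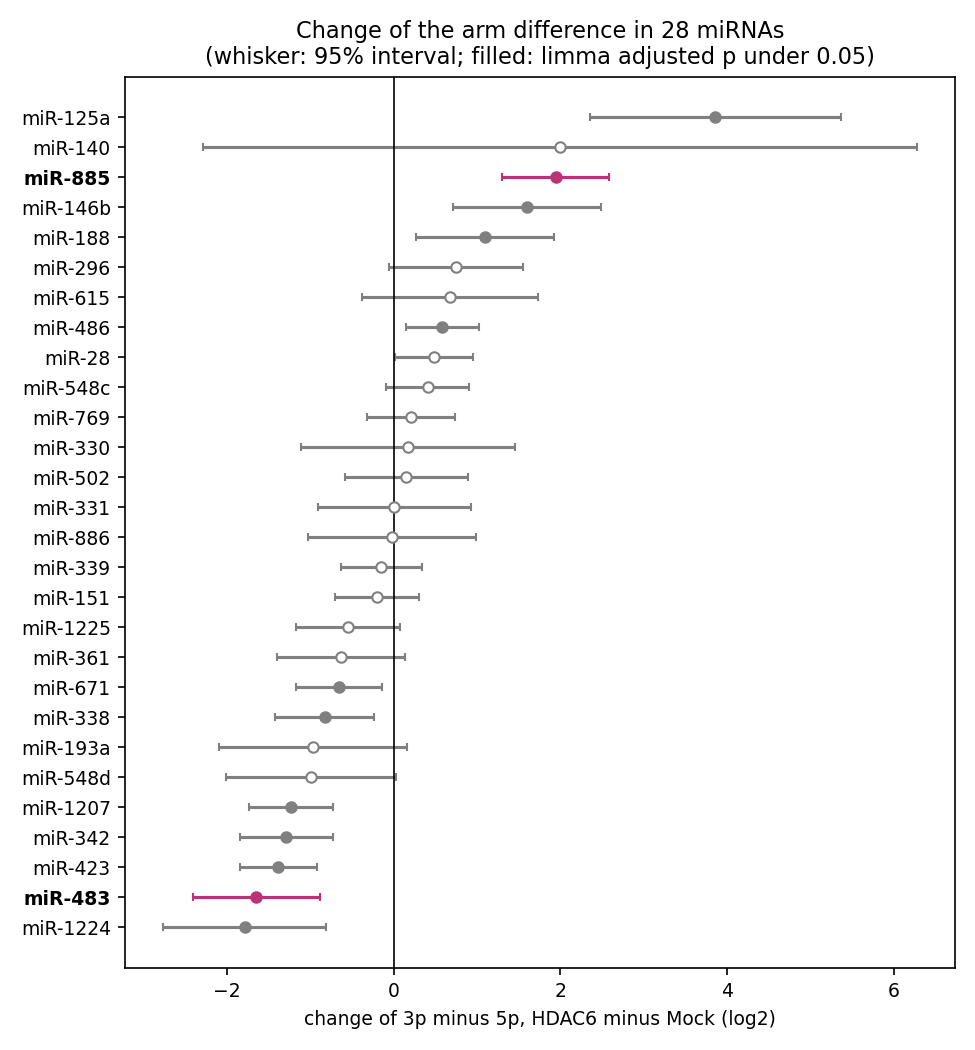
Change of the 3p minus 5p difference, HDAC6 minus Mock, on the log2 scale (horizontal axis) for the 28 miRNAs whose arms were paired by name. Points are limma estimates, whiskers 95% intervals, and filled points have an adjusted p under 0.05. MiR-885 at 1.94 and miR-483 at -1.65, in colour, lie near opposite ends.

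Most of the other liver miRNAs fell. From a list of 15 miRNAs of liver and of other cells found in liver, 11 had probes, and 10 of them were called lower and 0 higher (limma; 0 higher also under each alternative, and all 11 fold changes were negative), against 24.4% lower among all probes. Their median log2 fold change was -1.46, with a range from -1.90 to -0.46, and -0.09 for all probes. All 11 are guide strands, and of the 386 guide strands 114 were called lower, with a median of -0.21. The list was chosen with earlier results of these data known. MiR-192, which is abundant in liver and gut, fell by 1.90 on the log2 scale (adjusted p = 0.00953), and its cluster partner miR-194 and its relative miR-215 fell by 1.64 and 1.40 (0.0137 and 0.0178). MiR-148a, which represses DNMT1, fell by 1.66 (0.00272), miR-101, which represses EZH2, by 1.66 (0.00347), and miR-30a, which represses the autophagy gene BECN1, by 1.62 (0.00348). These were named for their high level or small p-value. No test set the 5 probes against this list.

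**Figure D4:**
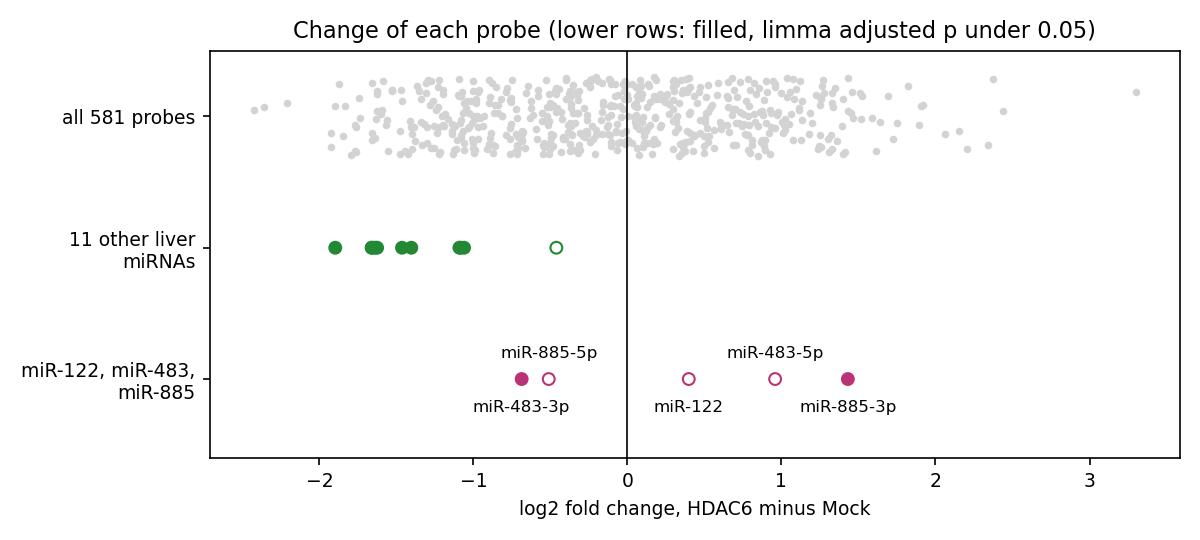
Log2 fold change, HDAC6 minus Mock (horizontal axis), of all 581 probes, of the 11 measured other liver miRNAs and of the 5 probes of miR-122, miR-483 and miR-885. Vertical scatter in the upper row only separates points, and filled points in the lower rows have a limma adjusted p under 0.05. The 11 lie between -1.90 and -0.46, while the 5 lie on both sides of 0, from -0.69 to 1.43.

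Near MIR483 in the imprinted IGF2 and H19 region lies MIR675, inside the span of H19, a non-coding RNA expressed from the other parental copy. MiR-675 read 9.93 ± 0.40 in Mock and 10.00 ± 0.21 in HDAC6, a log2 fold change of 0.07 (95% interval -0.51 to 0.66; limma, adjusted p = 0.843). Its passenger miR-675* was at 0.30 (adjusted p = 0.448). In both the groups overlapped.

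The probes whose pattern over the 6 arrays was most like that of each member were found among the other 381 guide strands, by the root mean square difference of log2 values after each probe's mean was removed. For miR-885-3p these were miR-127-3p at 0.117, miR-766 at 0.131 and miR-877 at 0.164, with log2 fold changes of 1.47, 1.31 and 1.33. For miR-122 they were miR-711 (0.119), miR-1208 (0.133) and miR-744 (0.142). MiR-483-3p was nearest to miR-422a (0.126), miR-492 (0.158) and miR-933 (0.161), and miR-885-5p to miR-933 (0.154), miR-296-5p (0.157) and miR-1280 (0.197), so that miR-933 was near both. MiR-483-5p had the least close neighbours, miR-1225-5p at 0.241, miR-636 at 0.266 and miR-1181 at 0.293. These likenesses describe 6 arrays only.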

How the data were processed

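Total RNA of Mock and HDAC6 transfected Hep3B cells was biotin-labelled and hybridized to GenoExplorer microRNA arrays (1 colour, 3 per group, groups and numbers from the sample titles). The deposited table holds log2 signals. Per the labels and the series' design text, the authors scanned on an Axon scanner, read spots with GenePix Pro 5.0, removed poor spots by eye, averaged 3 spots per probe, and used GenePlex 3.0 for quantile normalization and a class-specific filter. The log2 scale was read from the values. Background correction and the filter's rule are not given in the sources used here. Quantile normalization hides any change in total miRNA, so fold changes are relative to the other probes. Of 582 rows, 581 had values.

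HDAC6 was compared with Mock by limma 3.58.1 in R 4.3.3 (lmFit, eBayes, two-sided, no covariate, Benjamini-Hochberg over all 581 probes, or over 28 pairs for arm differences). The fits were also run on simulated data with independent noise, which checks the code and not the calls made here. Signals were averaged over 3 arrays per group, whose number limits the precision. Members and lists were chosen with earlier results of these data known. The text names every member, miR-675 and miR-675*, up to 3 listed liver miRNAs by level and 3 by p, and the 3 probes most like each member. Alternatives were other scalings, probe filters, priors, array weights, an offset, the replicate number as a block, and leaving out each array. Deviations of same-numbered arrays correlated at 0.16, -0.09 and 0.19, so the numbers were not taken to pair the arrays.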

Additional observations from a re-analysis of the deposited data

How the results depend on the processing

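The rise of miR-885-3p and the arm changes of miR-885 and miR-483 kept their direction and their call under each alternative run, at 1.10 to 1.58, 1.41 to 2.17 and -1.80 to -1.28 on the log2 scale. The lowest of each in size came when the 25th percentile of the linear signals was added before log2. MiR-122 did not pass under any of 16 alternatives (0.24 to 0.51). MiR-483-3p lost its call with arrays centred on control probes (-0.60), and without single arrays it ran from -0.82 to -0.55. MiR-483-5p passed with a trend and robust priors (0.96) and with array weights (0.80), and without single arrays ran from 0.56 to 1.24. MiR-885-5p passed with array weights (-0.70) and without single arrays ran from -0.76 to -0.32. Among the 5 probes 2 were called higher with a trend and robust priors, where 48.5% of all probes were called in either direction. With array weights 2 were called higher and 2 lower (57.8% of all probes), and with control-probe centring 0 were lower (28.6%). Without single arrays 1 to 2 were higher and 0 to 2 lower, while 30.8% to 42.9% of all probes were called, against 45.8% with all arrays. The causes of these changes were not tested. Of other liver miRNAs 8 to 11 were called lower under the alternatives run, with 28.6% to 59.8% of the probes tested called; the 11 came with array weights.

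Ranked among guide strands alone, the mean percentile in Mock was 40.0 for miR-122, 57.1 for miR-483-3p, 58.1 for miR-483-5p, 45.0 for miR-885-3p and 42.8 for miR-885-5p, and that of miR-483-3p in HDAC6 was 43.1. This follows from leaving out the precursor, passenger and control probes. With the replicate block the miR-885 and miR-483 arm changes had adjusted p-values of 0.00461 and 0.0158, miR-483-3p one of 0.0484 at the same -0.69, and no call among the members changed. With that block 8 arm pairs were called in place of 12, 6 without Mock array 3 and 8 without HDAC6 array 1 or 3. All probes called numbered 266, 166 with control-probe centring and 179 without HDAC6 array 1. MiR-885-5p fell outside the brighter probes, and so did the miR-885 pair. The planned comparison with precursor probes could not be run, since the stems have 0 such probes. Depth does not apply to arrays, and signal over background was unknown.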
